A study of Mus musculus with 25 samples.

Results

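The comparison set microglia from transplanted type 2 mouse brain tumours against microglia from spontaneous type 2 tumours, by RNA sequencing. It held 6 libraries, 3 of each model, of the 21 in the deposited table and the 25 labelled in the series. All 6 were made from total RNA of cells sorted as microglia from glioblastoma (GBM, a malignant brain tumour), and the labels number the libraries of each model 1 to 3. The labels distinguish the models only as spontaneous and transplanted and the tumours only as type 1 and type 2. They give no mouse strain, genotype, transgene, age, sex, transplanted cell line, host, treatment or sort gate for either group. They also do not say that the libraries came from separate animals, so the p-values measure the spread between libraries. The same contrast in type 1 tumour microglia (3 libraries a model) and 3 libraries of the cells labelled MDM from type 2 tumours, a name commonly used for monocyte-derived macrophages, served for comparison. The 4 normal brain microglia samples were not analysed here.

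Microglia are the resident macrophages of the brain, known by a homeostatic gene set that includes Tmem119, P2ry12 and Sall1. Interferon-gamma, made mainly by T and natural killer (NK) cells, acts on macrophages through its cell surface receptor and induces guanylate-binding proteins, immunity-related GTPases and the chemokine Cxcl9. It also induces Ciita, the master regulator of MHC class II genes, whose products present peptides to CD4 T cells. A second programme, called disease-associated microglia, includes Spp1, Apoe, Itgax and Lpl and appears around plaques, lesions and tumours.

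Promoter sequence of 3 genes that rose in transplanted tumours is shown to place the short motifs that the factors of these programmes are known to bind, with the motif in capitals. The sequences are RefSeq's for GRCm38.p6, the build the study named as mm10, and each gives the 250 bases before the gene's start, 5′ to 3′ on the gene's own strand. The window of Gbp2b, a guanylate-binding protein gene, is chr3:142594597-142594846 on the plus strand, that of H2-Aa, the alpha chain of the I-A class II molecule, is chr17:34287824-34288073 on the minus strand, and that of H2-Eb1, the beta chain of I-E, is chr17:34305617-34305866 on the plus strand. 
Gbp2b: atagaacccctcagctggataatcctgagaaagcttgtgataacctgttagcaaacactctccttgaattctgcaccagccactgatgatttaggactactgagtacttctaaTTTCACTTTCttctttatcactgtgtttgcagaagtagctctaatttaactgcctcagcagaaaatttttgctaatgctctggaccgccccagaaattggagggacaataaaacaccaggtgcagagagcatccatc
H2-Aa: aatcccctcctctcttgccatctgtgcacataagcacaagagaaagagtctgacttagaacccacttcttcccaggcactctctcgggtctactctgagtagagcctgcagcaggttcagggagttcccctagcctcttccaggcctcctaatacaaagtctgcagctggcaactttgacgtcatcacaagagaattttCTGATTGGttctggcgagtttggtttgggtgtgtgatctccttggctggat
H2-Eb1: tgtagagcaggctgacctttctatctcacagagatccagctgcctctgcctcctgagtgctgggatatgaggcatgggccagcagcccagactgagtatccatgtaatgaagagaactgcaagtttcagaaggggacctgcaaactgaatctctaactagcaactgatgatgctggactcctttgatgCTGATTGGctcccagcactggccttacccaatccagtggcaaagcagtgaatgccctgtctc
The capitals in Gbp2b mark an interferon-stimulated response element (GAAA, any 2 bases and GAAA, searched on both strands as the others were and found here on the minus strand), which began 137 bases before the start. Those in H2-Aa and H2-Eb1 mark the Y box of class II promoters (CTGATTGG), 51 and 62 bases before the start. In all 32851 promoter windows of 300 bases, from 250 before to 50 after the start, 3.44% held the response element, 8.30% the gamma-activated site TTCNNNGAA and 4.10% the Y box, and matches of different motifs may overlap. Of the 20 genes listed for the interferon-gamma response, 13 had a window (15 windows), and 10 windows held the response element and 5 the gamma-activated site. Of the 11 class II genes listed, 8 had a window (9 windows), and the Y box stood in those of H2-Aa, H2-Eb1, H2-Eb2 and H2-Oa. A match describes the letters and does not show that a factor bound there.

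The 6 libraries held 36496017 to 46120261 reads each, and their 10 most abundant genes took 12.6% to 26.1% of them. Across the 17216 genes tested, the mean r of spontaneous replicate 3 was 0.951 with the transplanted libraries and 0.929 with the other spontaneous ones. Spontaneous replicates 1 and 2 correlated with the other spontaneous libraries at 0.924 and 0.932, and with the transplanted ones at 0.909 and 0.926. Replicate 3 was thus the only spontaneous library nearer to the transplanted group, while its correlation with its own group lay between those of the other replicates. Short transcripts were over-represented against long ones by 0.63 and 0.76 log2 units in spontaneous replicates 1 and 2, and under-represented in spontaneous replicate 3 (-0.37) and in the transplanted libraries (-0.31, -0.43 and -0.27). Transcript length therefore moved with the model in 5 of the 6 libraries, and results below are given with and without spontaneous replicate 3 where they depend on it. Y-linked genes were read in 1 library of each model. The microglial label held. Tmem119 was at 211928, 207893 and 166931 normalised counts (reads divided by a library size factor) in spontaneous replicates 1, 2 and 3 and at 150263, 245104 and 108973 in the transplanted ones. The summed homeostatic list was 1681480 to 3046950 in the 6 libraries against 255551 to 600820 in the 3 MDM libraries. Ccr2, a monocyte receptor, was at 106, 265 and 127 and 125, 1373 and 779.

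Of the 17216 genes tested, 96 (0.558%) differed between transplanted and spontaneous type 2 microglia at a Benjamini-Hochberg adjusted p under 0.05 in limma, 40 higher (0.232%) and 56 lower (0.325%) in transplanted tumours. The groups did not overlap for any of the 96, against 9.9% of all tested genes with every transplanted library above and 8.1% with every one below the spontaneous libraries. The 96 were called on these same libraries, so their lack of overlap is no separate support. Fitted differences, given here as log2 fold change of normalised count plus 1 with its standard error, had a median of 4.67 (1.42 to 9.57) over the genes that rose and -2.99 (-8.85 to -1.26) over those that fell. The median over all genes was 0.05. Interferon-gamma response and MHC class II genes made up 10 of the 40 rises, while the falls included Spp1, the class Ib genes H2-Q2 and H2-Q10, the lectin receptor genes Klrb1a and Klrb1b, and the fusion gene Dcstamp. Without spontaneous replicate 3 the count was 786 (4.57%; 425 higher, 2.47%, and 361 lower, 2.1%) and held all 96. With every library set to the same total, which moved the median of all genes to 0.28, it was 95, of which 60% were higher in place of 41.7%. In the plot of the largest differences by library, the points of the 2 models stand apart in every row.

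**Figure D1:**
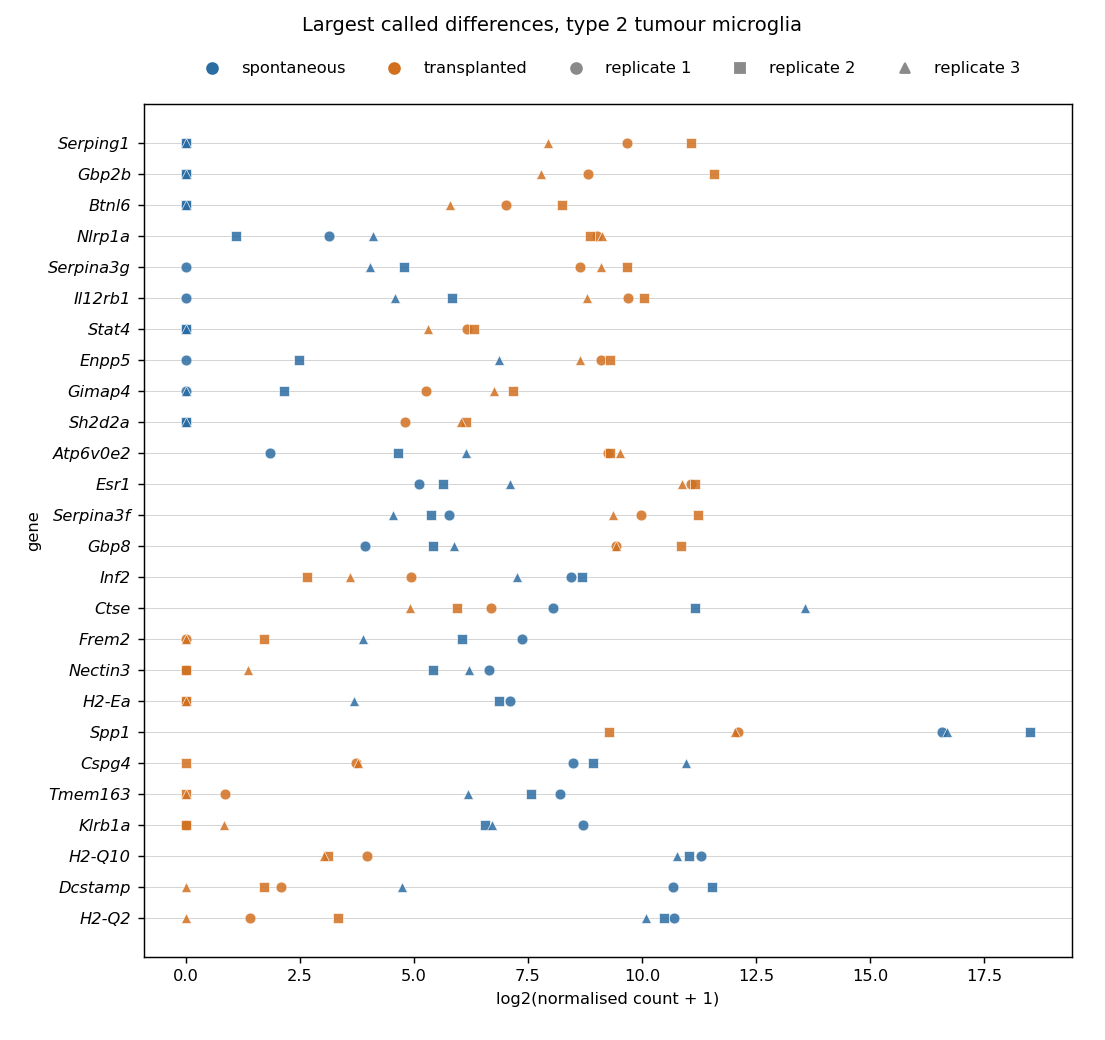
Levels of the 26 genes with the largest called differences, as log2(normalised count + 1) on the x axis, 1 row a gene, with blue for spontaneous and orange for transplanted type 2 microglia and the marker shape for the replicate. Every orange point lies on 1 side of the blue points of its row, and 5 of the risen genes sit at 0 in all 3 spontaneous libraries.

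Part of the interferon-gamma response genes rose in transplanted tumours. Of the 20 genes listed, all of them tested, 6 rose, none fell, and 14 had an unadjusted p under 0.05 in that direction, against 7.48% of all genes. Of the 20, 17 did not overlap between models, all in the higher direction, where 9.9% of all genes did not overlap. The list's median was 1.97 beside 0.05 for all genes. Without 1 library the number that rose was 3 (spontaneous replicate 1 or transplanted replicate 2 left out) to 8 (spontaneous replicate 3 left out), and the median 1.74 to 2.21. Gbp2b had no reads in any spontaneous library and 449, 3045 and 218 normalised counts in transplanted replicates 1, 2 and 3. With 3 reads a library as the floor it was at least 374-fold higher (9.39 ± 0.93, adjusted p = 5.5e-05). Gbp8 was at 14.3, 41.6 and 58.2 in spontaneous and 694, 1842 and 689 in transplanted replicates (4.83 ± 0.53, adjusted p = 0.00021). Transplanted replicate 2 was the highest library for both genes. Gbp6 was at 236, 178 and 144 against 1279, 1954 and 2042 (3.23 ± 0.51, adjusted p = 0.0043). Gbp4 was at 165, 163 and 321 against 1680.5, 2875 and 2101 (3.39 ± 0.63, adjusted p = 0.014). Guanylate-binding proteins are GTPases that attack the vacuoles and membranes of intracellular microbes, and their genes are near-identical in part, so reads may be shared among them. Cxcl9, a chemokine that draws activated T cells, was at 84.3, 192 and 64.1 against 1230.4, 1696 and 1021 (3.65 ± 0.73, adjusted p = 0.023). Iigp1, an immunity-related GTPase, was at 566, 487 and 513 against 5743, 6514 and 5306 (3.48 ± 0.68, adjusted p = 0.019). Leaving out 1 library ended the call for Cxcl9 without any 1 of spontaneous replicate 1 and transplanted replicates 1, 2 and 3 (adjusted p 0.064 to 0.15), for Gbp4 without any 1 of spontaneous replicates 1 and 2 and transplanted replicate 2 (adjusted p 0.071 to 0.091) and for Iigp1 without any 1 of spontaneous replicates 1 and 2 and transplanted replicates 1, 2 and 3 (adjusted p 0.064 to 0.1). The chemokine genes Cxcl10 and Cxcl11 were not called: Cxcl10 was at 3717, 4848 and 2076 against 3640.5, 3996 and 4612, with groups that overlap, and Cxcl11 at 424, 1505 and 13.7 against 51.6, 118 and 45.1. The type I interferon list, of which 34 genes were tested, had a median of 0.10, with 1 gene called higher and none lower. When 1 library was left out, that call held only without spontaneous replicate 3. Of the 34, 8 did not overlap in the higher direction (9.9% of all genes) and 1 in the lower (8.1% of all genes). Its members Ifit1, Isg15, Mx1 and Irf7 had differences of 0.11, -0.79, 0.05 and -0.60. Ifng, the cytokine gene, was at 0, 13.9 and 0 in spontaneous and 0, 0 and 1.58 in transplanted microglia and was chosen after its values were seen.

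The I-A chains, the I-E beta chain and the regulator of MHC class II genes rose, while the I-E alpha chain gene H2-Ea, which was not in the list, fell (its values are given with the MHC region). Of the 11 listed, 4 rose and none fell, 10 had a difference above 0 (52.4% of all genes did), and the median was 1.90. Without transplanted replicate 2 the list had 1 called member and a median of 1.10. Without spontaneous replicate 1 or transplanted replicate 1 it had 2 called (medians 1.90 and 2.85), and without transplanted replicate 3 it had 6. Ciita was at 25.9, 18.5 and 60.7 in spontaneous and 544, 2523 and 275 in transplanted replicates (4.51 ± 0.71, adjusted p = 0.0043). H2-Eb1 was at 3493, 8430.1 and 929 against 53955, 158694 and 21026 (4.23 ± 0.73, adjusted p = 0.0072). H2-Aa was at 7175, 12552 and 1757 against 66637, 203083 and 25972 (3.71 ± 0.69, adjusted p = 0.015). H2-Ab1, the beta chain of I-A, was at 12691, 21386 and 4599 against 105104, 380472 and 40014 (3.44 ± 0.67, adjusted p = 0.019). For all 4 genes transplanted replicate 2 was the highest and transplanted replicate 3 the lowest of its group. Spontaneous replicate 3 was the lowest of all for the 3 structural genes but the highest of its group for Ciita. The groups did not overlap for any of the 4. The class II calls were lost for H2-Ab1 without any 1 of spontaneous replicate 1 and transplanted replicates 1 and 2 (adjusted p 0.067 to 0.12), H2-Aa without any 1 of spontaneous replicate 1 and transplanted replicates 1 and 2 (adjusted p 0.053 to 0.11) and H2-Eb1 without transplanted replicate 2 (adjusted p = 0.063). Other cells also carry class II. None of the 12 border-associated macrophage markers was called in limma (2 higher and 1 lower at an unadjusted p under 0.05), and their median was 1.10 (1.45 without spontaneous replicate 3). Their summed level was 11750.2, 8362 and 8882 in spontaneous and 17274, 11896 and 16390.1 in transplanted microglia, where the groups did not overlap, against 16959.7 to 34472 in type 2 MDM. The defining marker Mrc1, the mannose receptor gene, was at 127, 154 and 138 against 747, 600.2 and 351 (1.95 ± 0.69, adjusted p = 0.26). Lyve1, a hyaluronan receptor gene, was at 0, 2.31 and 2.57 against 0, 39.6 and 30.9. None of the 12 dendritic cell markers was called in limma (2 higher and 0 lower without adjustment). In the higher direction 3 of them did not overlap (9.9% of all genes), and the median was 0.45. Their sums of 1318, 1248 and 831 and 1092, 1847 and 1157 overlapped, against 16068 to 35333 in type 2 MDM, and Clec9a was at 0, 0 and 0 against 2.46, 9.14 and 3.17. The part of either cell type in the class II rises was not tested. The peptide-loading genes were not called: H2-DMa was at 9817, 7679.9 and 6221 against 22712, 33756 and 12252 (1.44 ± 0.34, adjusted p = 0.067) and H2-DMb1 at 5954, 6366 and 3556 against 8405, 15930.3 and 5194. In the class I list, 1 of 16 genes was called, Nlrc5, the class I transactivator, at 154, 353 and 821 against 2252, 2579 and 2192 (2.71 ± 0.60, adjusted p = 0.048); the call was lost without any 1 of spontaneous replicates 1 and 2 and transplanted replicates 1, 2 and 3 (adjusted p 0.12 to 0.33). Of the 16, 6 did not overlap in the higher direction (9.9% of all genes) and 1 in the lower (8.1% of all genes), and the median was 0.39. The class I chains H2-D1 and H2-K1 had differences of 0.70 ± 0.40 and -0.01 ± 0.35. The class Ib genes H2-Q2 and H2-Q10, which were not in this list, fell (their values are given with the MHC region). The plot of the 3 lists shows class II and interferon-gamma genes mostly right of 0 and disease-associated genes left of it.

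**Figure D2:**
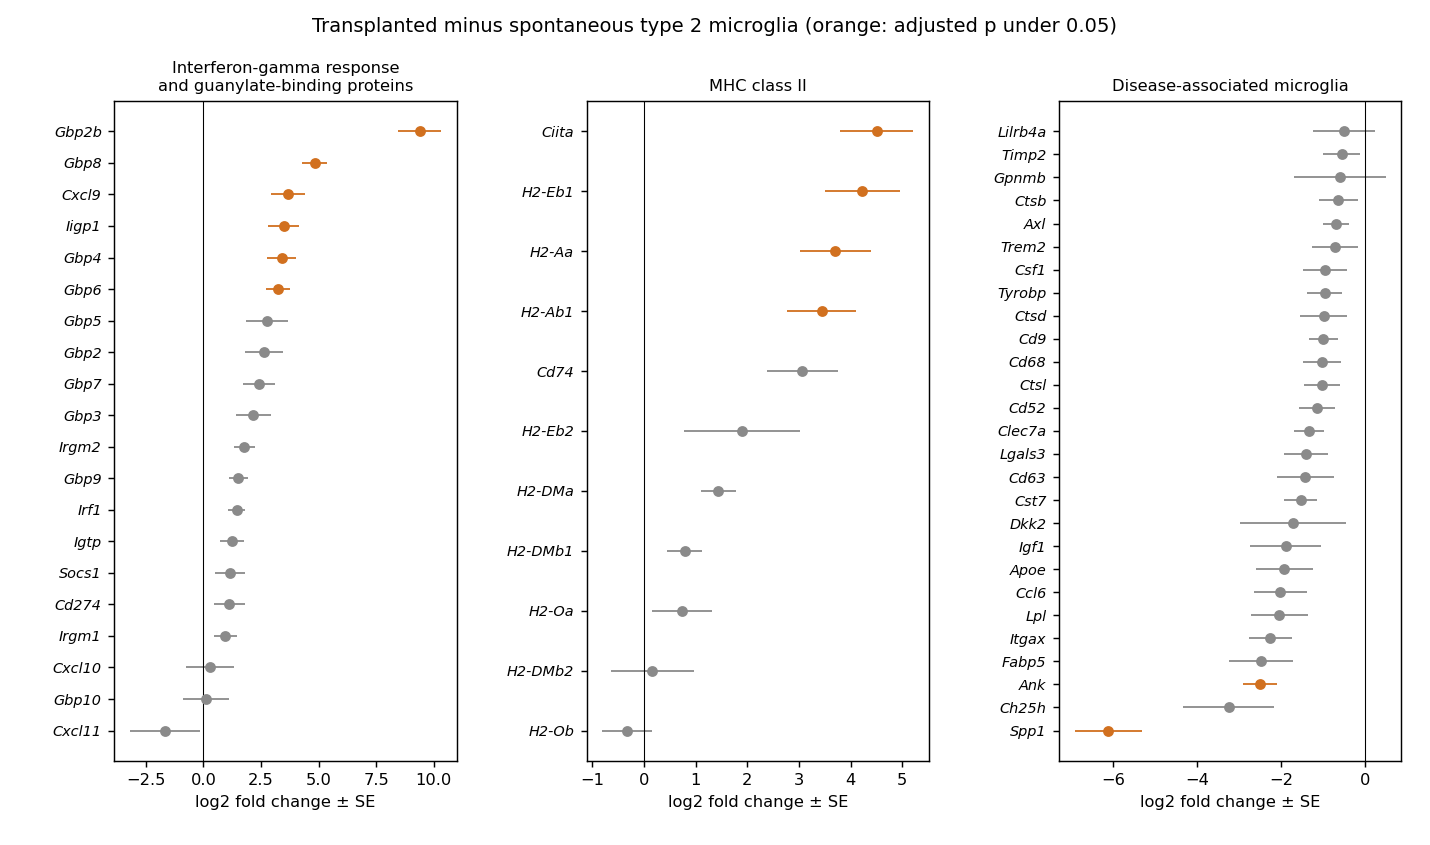
Fitted log2 fold change of transplanted minus spontaneous type 2 microglia (x axis, ± SE, 3 libraries a model) for the tested members of 3 gene lists, 1 row a gene, with called genes in orange and others in grey. Called members number 6, 4 and 2 from left to right, and all 27 points of the disease-associated list lie below 0.

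Other rises were in complement, inflammasome, hormone receptor and lymphocyte-associated genes. Serping1, the C1 inhibitor that blocks the first step of the classical complement pathway, had no reads in spontaneous microglia and 812, 2172 and 246 normalised counts in transplanted ones, at least 326-fold higher (9.57 ± 1.66, adjusted p = 0.0075). C4b, the complement component cleaved in that step, was at 1757, 2643 and 5448 against 50707, 45638 and 26265 (3.74 ± 0.58, adjusted p = 0.0041). These were the 2 called genes of the 15 tested in the complement list, whose median was 0.29, and the C1q chain genes had differences of -0.57 ± 0.55, -0.82 ± 0.57 and -0.62 ± 0.58. Nlrp1a, an inflammasome sensor, was at 7.79, 1.15 and 16.2 against 516, 465 and 556 (6.22 ± 0.87, adjusted p = 0.0018), with transplanted libraries close together. Esr1, the estrogen receptor alpha gene, was at 33.7, 48.5 and 138 against 2161, 2300.2 and 1874 (5.09 ± 0.64, adjusted p = 0.00075), with a wide gap between the groups. Serpina3f and Serpina3g, neighbouring protease inhibitor genes of a family with near-identical copies, were at 53.2, 40.4 and 22.2 against 1005, 2400.0 and 659 (4.97 ± 0.79, adjusted p = 0.0043) for the first and 0, 26.5 and 15.4 against 396, 816 and 553 (6.20 ± 1.25, adjusted p = 0.024) for the second. Enpp5 was at 0, 4.62 and 115 against 551, 632 and 397 (5.90 ± 1.09, adjusted p = 0.014), where spontaneous replicate 3 was far above the others of its group. Atp6v0e2, a subunit of the proton pump that acidifies lysosomes, was at 2.60, 24.2 and 70.1 against 607, 633 and 738 (5.14 ± 0.70, adjusted p = 0.0014). Btnl6, a butyrophilin-like gene of the MHC region, had no reads in spontaneous microglia and 128, 301 and 54.6 in transplanted, at least 48.7-fold higher (7.02 ± 1.16, adjusted p = 0.0054). Leaving out 1 library ended the call for Serping1 without transplanted replicate 2 (adjusted p = 0.067), Btnl6 without transplanted replicate 2 (adjusted p = 0.058), Serpina3g without any 1 of spontaneous replicate 1 and transplanted replicates 1, 2 and 3 (adjusted p 0.072 to 0.18) and Enpp5 without any 1 of spontaneous replicates 1 and 2 and transplanted replicates 1 and 2 (adjusted p 0.062 to 0.082).

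Of the risen genes, 4 known from T and NK cells are given together, a grouping made after their values were seen. Il12rb1, a chain of the interleukin-12 and interleukin-23 receptors, was at 0, 56.6 and 23.1 against 829, 1058 and 443 (6.03 ± 1.03, adjusted p = 0.0072). Stat4, which carries the interleukin-12 signal, had no reads in spontaneous microglia and 70.5, 79.2 and 38.8 in transplanted, at least 19.001-fold higher (5.93 ± 1.14, adjusted p = 0.018). Sh2d2a, a T-cell adaptor gene, had none against 27.1, 70.1 and 64.1, at least 16.3-fold higher (5.66 ± 1.09, adjusted p = 0.019), and Gimap4, a lymphocyte GTPase gene, was at 0, 3.46 and 0 against 37.7, 142 and 108 (5.68 ± 0.92, adjusted p = 0.005). Leaving out 1 library ended the call for Il12rb1 without transplanted replicate 2 (adjusted p = 0.061), Stat4 without any 1 of spontaneous replicates 1 and 2 and transplanted replicates 1 and 2 (adjusted p 0.071 to 0.1) and Sh2d2a without any 1 of spontaneous replicates 1 and 2 and transplanted replicates 2 and 3 (adjusted p 0.071 to 0.11). Of the 16 listed markers of T and NK cells none was called by limma, 8 had an unadjusted p under 0.05 in the higher direction against 7.48% of all genes, and the median was 2.95 (1.03 on the deposited log2 values). The 1 member lower at an unadjusted p under 0.05 was Klrb1c, an NK receptor gene, at 94.7, 41.6 and 153 against 17.2, 5.33 and 12.7 (-2.88 ± 0.73, adjusted p = 0.1). Their summed level was 118, 223 and 269 normalised counts in spontaneous and 317, 599 and 741 in transplanted microglia, against 35941 to 296957 in the 3 type 2 MDM libraries. In spontaneous replicates 1, 2 and 3, 12, 4 and 4 of the 16 were at 0, and none was at 0 in a transplanted library. Cd3g, a chain of the T-cell receptor complex, was at 0, 0 and 4.28 against 20.5, 30.5 and 45.9. Cd8a was at 0, 0 and 0 against 16.4, 15.99 and 35.6. Fewer or more T cells in the sort and less or more RNA per cell cannot be told apart in bulk libraries, and the part of T-cell RNA in the lymphocyte-associated and interferon-gamma rises was not tested.

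Disease-associated microglia genes all had differences below 0, the largest at Spp1, which fell to a small share of its spontaneous level. Spp1, osteopontin, a secreted matrix protein, was at 98593, 371282 and 105784 normalised counts in spontaneous and 4400.4, 619 and 4205 in transplanted replicates (-6.12 ± 0.80, adjusted p = 0.00095). The lowest spontaneous library was far above the highest transplanted one, and the call held without any 1 of the 6 libraries. Ank, a pyrophosphate transporter gene, was at 9605, 2741 and 8929 against 1277, 859 and 1146 (-2.51 ± 0.41, adjusted p = 0.005). These 2 were the called members of 27, none of which rose. All 27 differences were below 0, and 18 had an unadjusted p under 0.05 (6.45% of all genes did in that direction). The models did not overlap for 16 of them (8.1% of all genes in that direction), and the median was -1.34. Without spontaneous replicate 3, 5 members were called lower (2.1% of all genes were) and the median was -1.69. Itgax, an integrin of activated microglia, was at 9551, 5149.9 and 18252 against 2752, 2209 and 1328 (-2.27 ± 0.51, adjusted p = 0.053). Cst7, a cathepsin inhibitor, was at 28673, 50434 and 17137 against 14267, 7007 and 10127 (-1.54 ± 0.39, adjusted p = 0.097), neither called. Trem2, the lipid receptor that the programme depends on, was at 100813, 64408 and 47166 against 51082, 42641 and 32041. Axl, a receptor for dying cells, was at 26356, 18513 and 42754 against 19948, 15917 and 15199; both overlapped between models. Apoe had a difference of -1.93 ± 0.68, adjusted p = 0.26, and Gpnmb one of -0.60 ± 1.09, adjusted p = 0.84. Of the homeostatic microglia markers 0 of 27 were called, 16 differences were above 0, and the median was 0.05. In limma without adjustment, 1 of the 27 was higher and 1 lower at p under 0.05. P2ry12, an ADP receptor, was at 95017, 101192 and 82449 against 84902, 191785 and 74799.8. Sall1, a microglial transcription factor, was at 5431, 5174 and 9327 against 12041, 12564 and 7959.

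Lipid, chemokine and other listed genes held single falls with all libraries, and some of these lists held more without spontaneous replicate 3. Over all genes the called falls also grew without that library, from 0.325% to 2.1% of those tested. Apoc1, an apolipoprotein gene next to Apoe, was at 3158, 2394 and 504 against 472, 51.8 and 71.2 (-3.68 ± 0.73, adjusted p = 0.022), the 1 called member of 19 in the lipid efflux and storage list (3 without spontaneous replicate 3). Cxcl14, a chemokine gene, was at 845, 1528 and 818 against 61.5, 53.3 and 58.6 (-4.12 ± 0.50, adjusted p = 0.00059), and its 3 transplanted libraries lay close together. It was the 1 fall of 21 chemokines beside the rise of Cxcl9; 8 of the 21 had an unadjusted p under 0.05 in the lower direction, and the median was -0.90. Without spontaneous replicate 3, 3 chemokines were called lower and the median was -1.52. Ccl3, an inflammatory chemokine, was at 4780.0, 2689 and 1645 against 778, 193 and 1342 (-2.23 ± 0.66, adjusted p = 0.18). Ccl6 was at 41375, 30602 and 13763 against 8022, 5216 and 6241 (-2.02 ± 0.63, adjusted p = 0.2). Plaur, the urokinase receptor, was at 6568, 11262 and 4975 against 1944, 1099 and 962 (-2.49 ± 0.54, adjusted p = 0.042). Egln3, a prolyl hydroxylase induced by low oxygen, was at 1204, 1506 and 695 against 288, 61.7 and 207 (-2.80 ± 0.54, adjusted p = 0.019). Fgr, a Src-family kinase gene, was at 4068, 4878 and 3822 against 696, 1104 and 629 (-2.43 ± 0.45, adjusted p = 0.014) and was the 1 called gene of the 30 monocyte-derived macrophage markers, whose median was 0.32. Without spontaneous replicate 3 the list had 2 called lower and a median of -0.02. Leaving out 1 library ended the call for Apoc1 without any 1 of spontaneous replicates 1 and 2 and transplanted replicates 2 and 3 (adjusted p 0.11 to 0.18), Plaur without any 1 of spontaneous replicates 1 and 2 and transplanted replicates 1, 2 and 3 (adjusted p 0.062 to 0.21), Egln3 without any 1 of spontaneous replicates 1 and 2 and transplanted replicate 2 (adjusted p 0.11 to 0.14) and Fgr without any 1 of spontaneous replicates 1 and 2 and transplanted replicates 1 and 3 (adjusted p 0.066 to 0.071).

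Other large falls were in genes with no shared list. Dcstamp, which drives fusion of macrophages into giant cells and osteoclasts, was at 1632, 2981 and 25.7 against 3.28, 2.29 and 0 (-7.71 ± 1.22, adjusted p = 0.0043), with spontaneous replicate 3 much the lowest of its group. Ctse, the endosomal protease cathepsin E, was at 263, 2292 and 12236 against 102, 60.2 and 29.3 (-5.08 ± 0.93, adjusted p = 0.013), with spontaneous replicate 3 the highest. Tmem163, a zinc transporter gene, was at 293, 188 and 71.8 against 0.820, 0 and 0 (-7.03 ± 0.94, adjusted p = 0.0012). Inf2, a formin that builds actin filaments, was at 348, 409.7 and 151 against 29.5, 5.33 and 11.1 (-4.40 ± 0.72, adjusted p = 0.0051). Nectin3, a cell adhesion gene, was at 98.6, 41.6 and 72.7 against 0, 0 and 1.58 (-5.63 ± 0.98, adjusted p = 0.0076). Frem2, an extracellular matrix gene, was at 165, 65.8 and 13.7 against 0, 2.29 and 0 (-5.20 ± 1.08, adjusted p = 0.032). Cspg4, the NG2 proteoglycan of oligodendrocyte progenitors, pericytes and many gliomas, was at 359, 487 and 2001 against 12.3, 0 and 12.7 (-6.96 ± 1.09, adjusted p = 0.0043). The 11 tested markers of oligodendrocyte progenitors and tumour cells had a median of -2.14, and the summed list was 701, 702 and 2128 in spontaneous against 31.2, 49.5 and 60.2 in transplanted microglia. Cspg4 alone made up most of the spontaneous sums, and on the deposited log2 values the list's median was -0.65. The defining marker Pdgfra was at 0, 1.15 and 0 against 0, 0 and 0 and Olig2 at 0, 0 and 6.84 against 0.820, 8.38 and 0; the part of tumour-cell RNA in the fall of Cspg4 was not tested. Calls among these falls were lost for Ctse without any 1 of spontaneous replicate 2 and transplanted replicates 2 and 3 (adjusted p 0.063 to 0.072), Inf2 without transplanted replicate 2 (adjusted p = 0.052), Nectin3 without any 1 of spontaneous replicate 1 and transplanted replicate 2 (adjusted p 0.06 to 0.063) and Frem2 without any 1 of spontaneous replicates 1 and 2 and transplanted replicates 1, 2 and 3 (adjusted p 0.063 to 0.21).

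Several called genes lay beside each other in the genome and were near 0 in whole libraries. On chromosome 17, between 34.3 and 36.1 Mb, 9 of the 101 tested genes were called, 5 higher and 4 lower, against 0.558% of all genes. This is the MHC region, and the 9 were chosen here by position after their values were seen. The 5 higher were H2-Ab1, H2-Aa, H2-Eb1, Btnl6 and C4b, whose values are given above. H2-Q2 (chromosome 17, 35342307 to 35346764), a class Ib gene, was at 1679, 1427 and 1089.5 in spontaneous and 1.64, 9.14 and 0 in transplanted type 2 microglia (-8.85 ± 1.52, adjusted p = 0.0072). H2-Q10 (chromosome 17, 35470089 to 35474563) was at 2503, 2079.8 and 1737 against 14.8, 7.62 and 7.12 (-7.66 ± 1.48, adjusted p = 0.019), and lost its call without any 1 of spontaneous replicates 1 and 2 and transplanted replicates 1, 2 and 3 (adjusted p 0.058 to 0.098). In type 1 microglia H2-Q2 was at 1576, 1479.7 and 1919.9 in spontaneous replicates 1, 2 and 3 and 2194, 24.8 and 4.47 in transplanted replicates 1, 2 and 4, and H2-Q10 at 3171, 2975 and 3748 and 4098, 58.4 and 5.96. Both genes were thus high in all 6 spontaneous microglia libraries and in transplanted type 1 replicate 1, and low in the other 5 transplanted ones. H2-Ea (chromosome 17, 34341952 to 34344645), the alpha chain of the I-E class II molecule, was at 136, 115 and 11.97 in spontaneous and 0 in all transplanted type 2 microglia, at least 37.03-fold lower (-5.89 ± 0.96, adjusted p = 0.005). It moved against its partner H2-Eb1, had no reads in the 6 type 1 microglia libraries, and in type 2 MDM stood at 3294 in the spontaneous library and 0 and 0.873 in the transplanted ones. H2-Ea is known to be silent in mice of the H2b haplotype, which C57BL/6 carries. The labels name no strain, so a difference of strain between the models cannot be told apart from the model. This limit holds for the risen genes of this region and for every other called gene, not for H2-Ea alone.

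Klrb1a and Klrb1b, neighbouring lectin-like receptor genes known from NK cells, fell together on chromosome 6, where 3 of 12 tested genes in the span were called. Klrb1a (chromosome 6, 128609227 to 128622934) was at 419, 93.5 and 103 against 0, 0 and 0.792 (-7.05 ± 0.93, adjusted p = 0.0011), while the T-cell genes Cd3g and Cd8a had differences above 0. The call was lost for Klrb1b without any 1 of spontaneous replicates 1 and 2 and transplanted replicates 1 and 2 (adjusted p 0.056 to 0.14). On the same chromosome Atp6v0e2, Gimap4 and Gimap7 rose within 1 span, as did Nlrp1a and the pseudogene Nlrp1c-ps on chromosome 11, Serpina3f and Serpina3g on chromosome 12, and Gbp4, Gbp6 and Gbp8 beside the fall of Spp1 on chromosome 5. In all, 37 of the 96 called genes lay in 13 such spans, with no more than 1 Mb between neighbours. Each span was bounded by the called genes themselves, which raises its share of called genes. How many genes of any set of this size would lie in such spans was not tested. Members of the H2-Q, Klrb1, Nlrp1, Gbp and Serpina3 families resemble each other in sequence, so their reads may be assigned to the wrong copy, which was not tested. In the plot of selected genes by library, Nlrp1a, Esr1 and Gbp2b separate all transplanted from all spontaneous microglia, and H2-Ea and Wdfy1 separate type 2 alone.

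**Figure D3:**
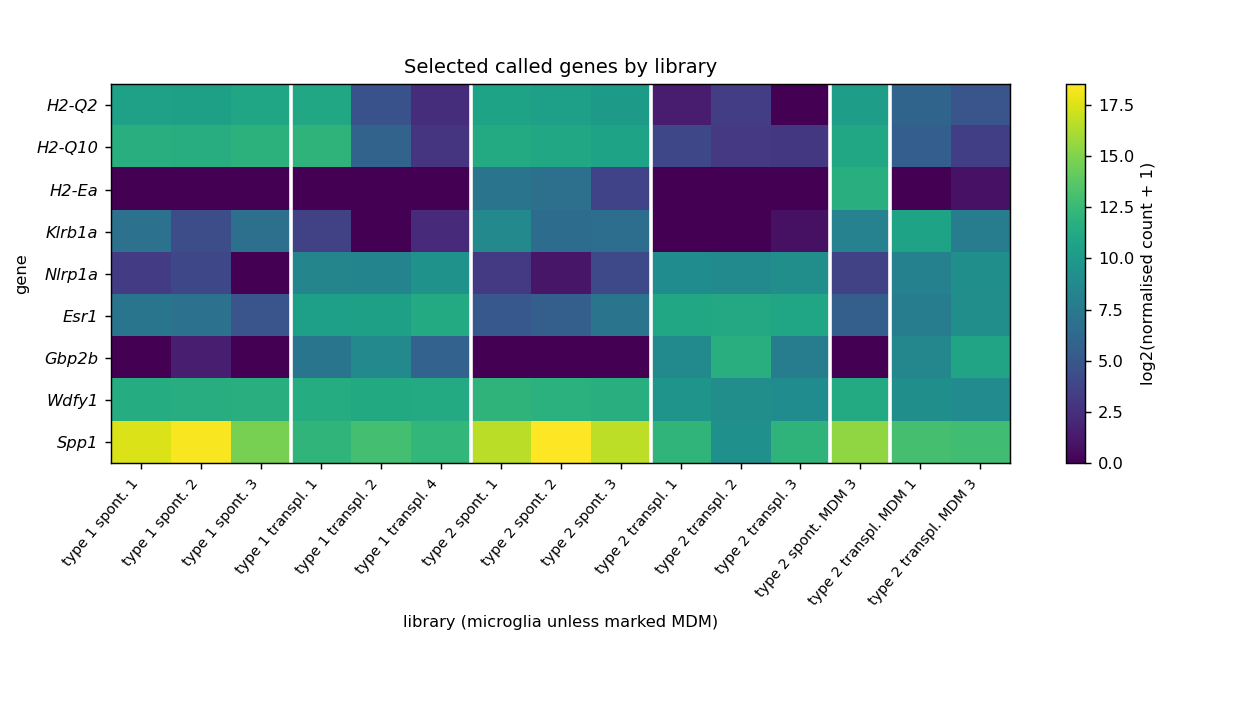
Levels of 9 called genes (rows) in the 12 microglia libraries and the 3 type 2 MDM libraries (columns), as log2(normalised count + 1) in colour, with white lines between groups. Nlrp1a and Esr1 are high in all 6 transplanted microglia libraries, H2-Q2 and H2-Q10 are low in 5 of them, and Wdfy1 is lower in the transplanted type 2 libraries of both cell types.

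Glycolysis, respiration and ribosome genes had differences mostly below 0, and 1 of them was called. Of 25 glycolysis and hypoxia genes, 1 fell (Egln3), 14 had an unadjusted p under 0.05 in the lower direction against 6.45% of all genes, and the median was -1.05; without spontaneous replicate 3, 9 were called lower. Aldoa, an aldolase, was at 79703, 105931 and 39715 against 30142, 19213 and 35167 (-1.35 ± 0.36, adjusted p = 0.13). Tpi1, triose phosphate isomerase, was at 33949, 42625 and 14375 against 9597, 5868 and 15972 (-1.51 ± 0.40, adjusted p = 0.12). Spontaneous replicates 1 and 2 were the high libraries for both, and replicate 3 overlapped the transplanted group for Tpi1. Of 30 cytosolic ribosomal protein genes none was called, 28 had an unadjusted p under 0.05 in the lower direction, and the median was -1.04. Without spontaneous replicate 3, 19 of them were called lower, and 2.1% of all genes were. The 30 respiratory chain genes had a median of -0.64, with 10 at an unadjusted p under 0.05 and none called. These are mostly short transcripts, and over all genes the median difference was -0.32 for the shortest, 0.09 for the middle and 0.37 for the longest of 3 equal length classes. With each library centred within length classes, the medians became -0.86, -0.56 and -0.27 for glycolysis, ribosome and respiration. Those of the interferon-gamma, class II and disease-associated lists became 1.82, 1.81 and -1.20. Egr1, an immediate-early gene that tissue dissociation can induce, was at 4628, 1577 and 3081 against 759, 387 and 484 (-2.43 ± 0.57, adjusted p = 0.068). Of the 23 immediate-early genes 0 were called in limma (median -0.65, 6 lower at an unadjusted p under 0.05). Mki67, a marker of dividing cells, was at 214, 287 and 1155 against 348, 121 and 986, and of 34 proliferation genes none was called, with 1 higher and 1 lower at an unadjusted p under 0.05.

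**Figure D4:**
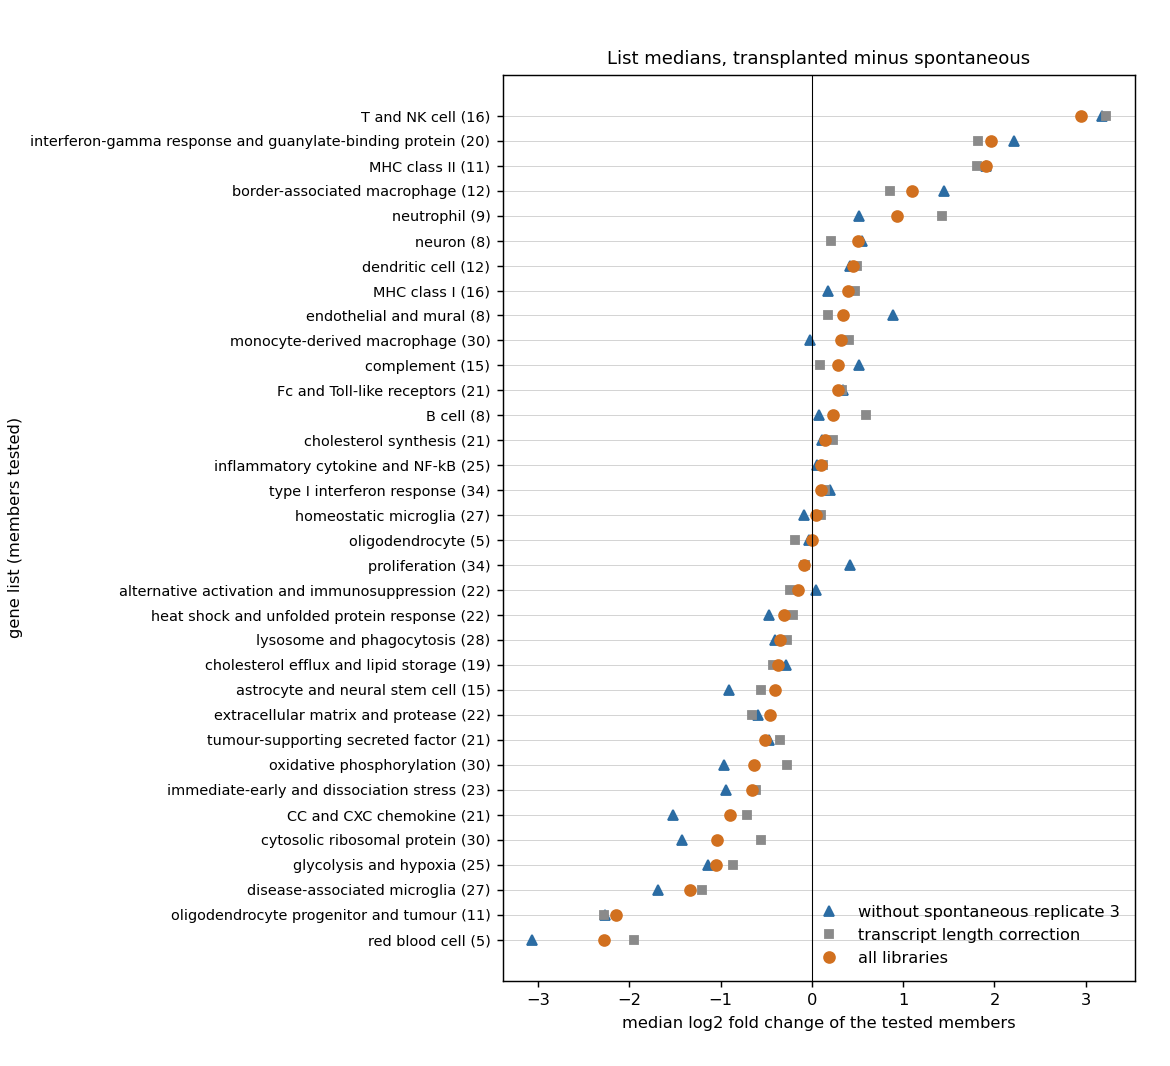
Median log2 fold change of transplanted minus spontaneous type 2 microglia over the tested members of each gene list (rows, number tested in brackets), with circles for all libraries, triangles without spontaneous replicate 3 and squares after the transcript length correction. The interferon-gamma and class II lists lie right of 0 and the disease-associated list left of it in all 3 versions, and the ribosome list is nearer 0 after the correction.

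The same contrast in type 1 tumours asked which of these differences recur. In type 1 microglia 46 genes were called (0.267%; 28 higher, 0.163%, and 18 lower, 0.105%). Of the 40 that rose in type 2, 36 had a difference above 0 in type 1, where 49.9% of all genes did. Of the 40, 8 were called higher there too, 20% of the type 2 rises and 28.6% of the type 1 rises. These were Enpp5, Esr1, Gbp2b, Gbp8, Gimap7, Nlrp1a, Nlrp1c-ps and Sh2d2a. Another 1 of the 40, Rasgrp1, was called lower in type 1. Of the 56 that fell, 46 had a difference below 0 in type 1. Of these, 4 were called there, 7.14% of the type 2 falls and 22.2% of the type 1 falls, namely Spp1, Cxcl14, Bambi and Thg1l. The type 2 call was lost for Gimap7 without any 1 of spontaneous replicates 1 and 2 and transplanted replicates 1, 2 and 3 (adjusted p 0.064 to 0.15), Bambi without any 1 of spontaneous replicates 1 and 2 and transplanted replicates 1, 2 and 3 (adjusted p 0.063 to 0.1) and Thg1l without any 1 of spontaneous replicates 1 and 2 and transplanted replicate 2 (adjusted p 0.071 to 0.11). Esr1 was at 148, 126 and 29.02 in spontaneous and 1407, 1444 and 2596 in transplanted type 1 microglia (4.39 ± 0.64, adjusted p = 0.0057), and Spp1 at 190397, 329333 and 26586 and 4345, 7915 and 4929.8 (-4.42 ± 0.80, adjusted p = 0.025). For both genes the type 1 groups did not overlap either. The class II genes were not called in type 1, with H2-Ab1 at 20035, 75222 and 25226 against 210347, 214039 and 125541 (2.41 ± 0.67). The interferon-gamma list had a type 1 median of 1.19 with 2 genes called higher. The T and NK cell markers had a type 1 median of 3.73 with 1 called higher. Summed, these markers were at 404, 599 and 337 in spontaneous and 3784, 6246 and 307 in transplanted type 1 microglia. The disease-associated list had a type 1 median of -0.32, but the difference between types was not called for any of these genes. That difference, tested as the interaction of tumour type and model, was called for 2 of 17216 genes (0.0116%), and 1088 (6.32%) had an unadjusted p under 0.05. The first was Wdfy1, an endosomal adaptor of Toll-like receptor signalling, at 4121, 3671 and 3077 in spontaneous and 776, 551 and 509 in transplanted type 2 microglia but 2861, 2903 and 3151 and 2812, 2425 and 2594 in type 1 (interaction -2.39 ± 0.34, adjusted p = 0.014). The transplanted type 2 libraries were the low ones, and so were transplanted type 2 MDM at 583 and 489.9 beside 2533 in the spontaneous one. The second, Rasgrp1, a lymphocyte Ras activator, was at most at 61 normalised counts in microglia, and it rose in type 2 and fell in type 1. In type 2 MDM, with 2 transplanted libraries and 1 spontaneous, both transplanted libraries lay above the spontaneous one for 28 of the 40 risen genes (70%; 31% of all genes) and below it for 41 of the 56 that fell (73.2%; 30.6% of all genes). These 3 MDM libraries carry the group and replicate numbers of microglia libraries in the comparison, and the labels do not say whether they came from the same tumours, so they may not be independent of them.

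**Figure D5:**
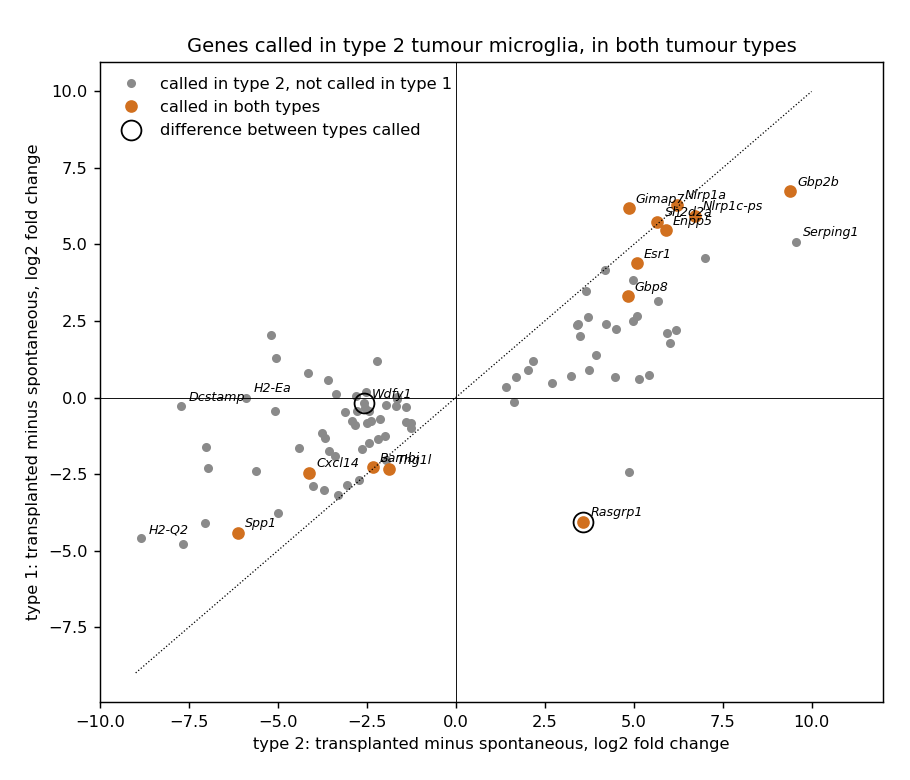
Log2 fold change of transplanted minus spontaneous microglia in type 2 (x axis) and type 1 tumours (y axis) for the 96 genes called in type 2, with orange for genes also called in type 1, rings for genes whose difference between types was called, and a dotted line of equal change. Most points share a sign, 36 of 40 on the right and 46 of 56 on the left, and Rasgrp1 has opposite signs.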

How the data were processed

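The authors deposited 1 table of 30749 genes in 21 libraries, in log2 units after a variance-stabilising transformation (floor 4.22 for a gene without reads). STAR 2.7.8a, the build mm10 and DESeq2 (version not given in the sources used here) are named in the submitters' processing notes. Per the labels' protocols, RNA was extracted with TRIzol and amplified with a SMART-Seq v4 kit; strand is not stated, so overlapping genes may share reads. The deposited log2 values were inverted in closed form, and 100% came back as whole reads (tolerance 1e-06). The design had assumed normalised counts. Normalised counts plus 1 were taken as log2. Genes with a value of 10 or more in 3 or more libraries entered the test (17216 in all), and the package limma 3.58.1 (trend, R 4.3.3) was fitted with 8 group means over 21 libraries and Benjamini-Hochberg adjustment. The procedure was tested on simulated data. Contrasts were fitted for both tumour types and their interaction, with 18 other settings for type 2 and 2 more chosen after seeing the data. Members and the 35 lists were chosen with earlier results of these data known. The rule for naming took a set of known microglial and macrophage genes, then the 12 strongest rises and 12 strongest falls whose higher group averaged 50 or more (and 5 each at 1000 or more), without predicted genes, pseudogenes or receptor segments. It also took, from every list, at most 4 genes with the lowest p, and the called interaction genes at 50 or more. Others named (list members beyond those 4, Rasgrp1, Ifng, genes named by position or by calls in both tumour types) were chosen after their values were seen. Positions are RefSeq's (GRCm38.p6), matched for 97.9% of tested genes, and transcript lengths were matched for 88.7%. 1 gene is not reported here. The ± values are limma standard errors, which measure the spread between libraries pooled over the 8 groups. The floors of 3 reads cover counting error only.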

Additional observations from a re-analysis of the deposited data

Results flagged for a closer look

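The transplanted minus spontaneous difference of Wdfy1 was lower in type 2 than in type 1 by an interaction of -2.39 on the log2 scale, and that of Rasgrp1 was higher by 7.65, each with an adjusted p of 0.014 for the interaction in limma. These were the 2 genes whose response to the model was called different in type 2 and type 1 microglia. Wdfy1 was at 4121, 3671 and 3077 normalised counts in spontaneous and 776, 551 and 509 in transplanted type 2 microglia (-2.58 ± 0.24), and at 2861, 2903 and 3151 and 2812, 2425 and 2594 in type 1 (-0.19 ± 0.24). The 3 transplanted type 2 libraries were the lowest of the 12, and the other 9 lay between 2425 and 4121. Rasgrp1 was at 19.5, 1.15 and 0 against 24.6, 47.2 and 60.95 in type 2 (3.59 ± 0.78, adjusted p = 0.042) and at 12.3, 12.2 and 25.8 against 0 in all 3 transplanted libraries in type 1 (-4.06 ± 0.78, adjusted p = 0.034). Its levels were at most 61 normalised counts in microglia beside 645, 1488 and 1589 in the type 2 MDM libraries; it was chosen after its values were seen. The type 2 call was lost for Rasgrp1 without any 1 of spontaneous replicate 2 and transplanted replicates 1, 2 and 3 (adjusted p 0.072 to 0.2).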

How the results depend on the processing

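All 50 called genes examined one by one kept their direction in every alternative run, 20 for 49 of them and 19 for Frem2, which a filter at 50 removed. Of the 50, 21 kept their call without each of the 6 libraries in turn, and 6 kept it in every alternative but the replicate block. Of the 96 genes called in type 2, leaving out 1 library gave 33 (without transplanted replicate 2) to 786 (without spontaneous replicate 3), and 40 and 51 without spontaneous replicates 1 and 2 and 57 and 66 without transplanted replicates 1 and 3. The 46 of type 1 became 17 to 99 (without transplanted replicates 1 and 4), and 19 without transplanted replicate 2. The 2 interaction genes became 0 to 12; the count was 0 without transplanted type 2 replicate 2 or 3, spontaneous type 1 replicate 2 or transplanted type 1 replicate 1 (908 to 980 genes at an unadjusted p under 0.05 in limma), and 12 without spontaneous type 2 replicate 3. With array weights the type 2, type 1 and interaction counts were 1848, 846 and 182, and with voom on the recovered reads 60, 13 and 1. Only the 12 microglia libraries gave 45, 19 and 1. Only the 6 compared libraries gave 66 in type 2 (45 higher, 21 lower, 23 of them among the 96). For type 1 and the interaction that setting reused the 12 microglia libraries, so it gave no separate count. A Y-linked covariate gave 21 in type 1, a pseudocount of 8 gave 1 interaction gene, and the transcript length correction, added after seeing the data, 4. Deviations of same-numbered libraries from their group means correlated at 0.03, -0.01 and 0.03 across genes, and spontaneous replicate 2 correlated best with transplanted replicate 3. These correlations cannot decide whether same-numbered libraries shared an animal or batch, which the labels do not say. With the replicate number as a block the limma counts were 0, 0 and 0 (1821, 1453 and 2088 genes at an unadjusted p under 0.05). The same libraries without the block gave 66, 0 (1800 unadjusted) and 21. The cause of these changes was not tested. With 3 libraries a model and floors of 2.29 to 3.89 normalised counts for 3 reads, changes in genes near those levels were not detectable.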
